A study of Mus musculus with 10 samples.

Results

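Sox17, Sox7 and Sox18 make up the SoxF group of SOX transcription factors. They were measured in haematopoietic stem cells (HSCs) in which Sox17 was to be induced from a transgene. The members are all probe sets that the platform annotation pairs with one of these symbols alone, 1 for each gene, so 3 of the 23410 probe sets tested; 19938 genes have a probe set of their own. Expression was read on 10 Affymetrix mouse gene arrays, 5 from HSCs labelled Sox17-transgenic and 5 from HSCs labelled wild type.

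The transgenic mice carried (tetO)7CMVSox17-IRES-NucEGFP and, from a B6.Cg strain, the allele Gt(ROSA)26Sortm1(rtTA*M2)Jae. In this system the doxycycline-dependent activator rtTA is made from the Rosa26 locus, which is active in most cell types, and the tetO promoter drives Sox17 and a nuclear green fluorescent protein. The wild-type mice were littermates, and the labels do not say whether any of them carried one of the transgenes alone. Mice of both groups were 8 weeks old and drank doxycycline at 2 mg/ml for 5 days. Each aliquot held 10000 bone marrow cells, double-sorted for CD150, Sca1 and cKit and against CD48 and lineage markers. The aliquots are called independent but are not tied to single animals, so a p-value measures the spread between arrays, some of which could be technical.

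SOX factors bend DNA by binding short AT-rich sites in its minor groove through a high mobility group (HMG) box. The SoxF factors also carry a C-terminal activation domain and can bind beta-catenin. In endothelium they act partly in place of one another: Sox17 in arteries, Sox18 in the first lymphatic vessels and Sox7 in vessel growth and remodelling. Sox17 and Sox7 also act in endoderm. In mouse blood formation Sox17 is needed by fetal and newborn HSCs and is switched off as they become adult, while Sox7 and Sox18 are made briefly in early blood precursors of the embryo.

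The values are the authors' deposited log2 values from robust multi-array average (RMA) processing, which sets probe intensities to a common distribution over arrays. Medians of the deposited probe set values still differ between arrays, as given below. The level of a probe set also depends on how well its probes bind, so levels of different genes are given only as places in the array-wide distribution. RMA compresses differences between low values. Arrays carry no read depth, and precision is limited by their number.

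The arrays also differed within the groups. By the first principal component of deviations from the group means (40.1% of that variance), transgenic arrays 1, 2 and 3 and wild-type arrays 1 and 2 (set A) lay apart from transgenic arrays 4 and 5 and wild-type arrays 3, 4 and 5 (set B). These sets come from the values and not from the labels. Group means were removed first, so the sets cannot show whether the main variation follows the groups. Array medians over all probe sets of the table ran from 5.535 to 5.563 in set A and from 5.455 to 5.515 in set B. Transgenic array 4 alone carried RNA of the Y-linked gene Eif2s3y, at 9.23 against 2.57 to 2.87 on the 9 other arrays. The Y-linked Kdm5d (7.85) and Uty (6.97) were also highest on it. Xist, the X-inactivation RNA, read 4.32 there against 10.80 to 11.40 on the others. By these genes transgenic array 4 read as male and the 9 others as female. The sorted type showed high Kit (transgenic mean 9.43 ± 0.22, wild-type mean 9.90 ± 0.17; SD, n = 5 each) and Ptprc, the pan-leukocyte gene (10.29 ± 0.13 and 10.06 ± 0.30). Slamf1, the gene of CD150, averaged 7.50 ± 0.19 and 7.31 ± 0.59, and Cd48, whose protein the gate excludes, 6.29 ± 0.53 and 4.96 ± 0.51, uncalled (limma adjusted p = 0.145). Ly6a, which encodes Sca1, had no probe set of its own.

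Sox17, the gene that the transgene carries, read low on all arrays of both groups. The transgenic arrays 1 to 5 read 4.51, 4.50, 4.25, 4.29 and 4.29, against 4.30, 4.14, 4.02, 4.30 and 4.29 on wild-type arrays 1 to 5. Transgenic arrays 1 and 2 lay above all wild-type arrays and wild-type arrays 2 and 3 below all transgenic arrays, while the other 6 arrays fell between 4.25 and 4.30. The groups thus overlapped. The transgenic mean was 4.37 ± 0.13 and the wild-type mean 4.21 ± 0.13 (SD, n = 5 each).

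The Sox17 difference of 0.16 (SE 0.09), transgenic minus wild type, did not pass the threshold of 0.05 (limma, adjusted p = 0.855 over all tested probe sets). It was not called by an exact two-sided permutation test of the 252 splits either (p = 0.159, smallest possible p 0.00794). On the scale of these values it amounts to 1.12-fold, with a 95% interval of 0.975 to 1.28. All 5 transgenic arrays read above the wild-type mean, but 12.9% of all tested probe sets had a difference at least as high. The set A arrays alone gave 0.20 and the set B arrays alone 0.085. Transgenic arrays 4 and 5, at 4.29, read like wild-type arrays 4 and 5 of the same set, at 4.30 and 4.29. Wild-type array 3, also of set B, read lower, at 4.02.

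The Sox17 level therefore does not check the labels. The labels do not say which stretch of the Sox17 transcript the transgene holds, and probe positions were not used here, so whether this probe set can read the transgene was not tested. Directions below go by the arrays' labels.

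**Figure D1:**
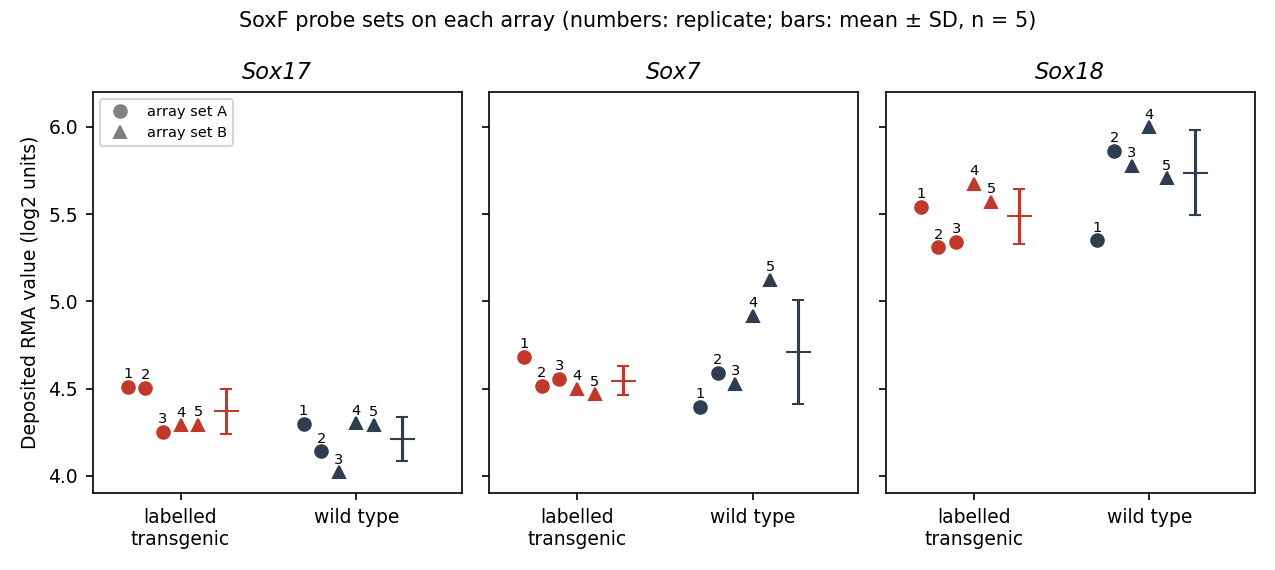
Deposited log2 values (vertical axis) of the Sox17, Sox7 and Sox18 probe sets on each array, with the arrays labelled transgenic on the left of each panel and wild type on the right; numbers give the replicate, circles array set A, triangles array set B, and bars the mean ± SD of 5 arrays. Sox17 spans 4.02 to 4.51 over all arrays, the wild-type Sox7 values spread up to 5.12, and 4 wild-type Sox18 values lie above all 5 transgenic ones.

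Sox7, the SoxF factor of vessel remodelling and of parietal endoderm, also read low. Transgenic arrays 1 to 5 read 4.68, 4.52, 4.55, 4.50 and 4.47, against 4.39, 4.59, 4.53, 4.92 and 5.12 on wild-type arrays 1 to 5. Wild-type arrays 4 and 5 stood above all others, and wild-type array 1 was the lowest of all. The transgenic arrays spanned a narrower range, with means of 4.54 ± 0.08 against 4.71 ± 0.30 (SD, n = 5 each). The difference of -0.17 (SE 0.13, limma adjusted p = 0.928) did not pass, with a 95% interval from -0.46 to 0.12, and the exact permutation test gave p = 0.317.

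The Sox7 difference rested on those wild-type arrays 4 and 5, both of set B. It was -0.063 without wild-type array 5 and -0.11 without wild-type array 4. Its sign differed between the array sets, at 0.093 within set A (means 4.58 and 4.49) and -0.37 within set B (means 4.48 and 4.86), and neither value was called (limma adjusted p = 0.970 and 0.943). Sox7 has no settled direction in these data.

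Sox18, known from lymphatic and blood vessel growth, read highest of the SoxF probe sets. Transgenic arrays 1 to 5 read 5.54, 5.31, 5.34, 5.67 and 5.57, against 5.35, 5.86, 5.77, 5.997 and 5.70 on wild-type arrays 1 to 5. All wild-type arrays but array 1 lay above all 5 transgenic arrays, and wild-type array 1 lay among the lowest. The transgenic mean was 5.49 ± 0.16 and the wild-type mean 5.74 ± 0.24 (SD, n = 5 each). The difference of -0.25 (SE 0.12) did not pass (limma adjusted p = 0.799), with a 95% interval from -0.52 to 0.02, and the exact permutation test gave p = 0.0873.

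For Sox18, 5.89% of all tested probe sets had a difference as low or lower. The set A arrays alone gave -0.21 and the set B arrays alone -0.20, so both shared its sign. Without wild-type array 1 the groups did not overlap and the difference was -0.35 (limma adjusted p = 0.402). Sox18 read 5.74 on average in set B and 5.48 in set A. With the group in the model that gap was 0.22 (SE 0.11). The sets were drawn from these same values, so no p-value is given for that gap.

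Together, 0 of the 3 SoxF probe sets passed the threshold (limma), 0 had an unadjusted p under 0.05 and 0 had groups that did not overlap. Over all tested probe sets 33 passed (0.141%), 6.59% had an unadjusted p under 0.05 and 1.47% had groups that did not overlap. With a set of 3 members these shares give little to compare. The intervals bound the differences: on the RMA scale a rise of Sox17 above 1.28-fold and a fall of Sox18 below 0.696-fold lie outside them.

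In the array-wide distribution the mean of Sox17 stood at the 23.2 percentile, Sox7 at the 28.9 and Sox18 at the 46.6 percentile. On single arrays the place of Sox17 ran from 23.4 to 26.9 on the transgenic and from 20.1 to 23.9 on the wild-type arrays. Sox7 ran from 26.7 to 29.0 and from 25.5 to 37.8, and Sox18 from 41.1 to 48.0 and from 42.1 to 53.5. Sox17 was the lowest of the SoxF probe sets and Sox18 the highest on all 10 arrays.

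These places were set beside those of genes from tissues outside blood, such as albumin (Alb) and the heart myosin Myh6. Of 22 such genes measured, 17 read above Sox17, 14 above Sox7 and 4 above Sox18 in their mean over all arrays. Their places ran from the 4.81 to the 58.4 percentile. All 3 SoxF places lay inside that range, Sox18 in its upper part. Another measure was the 1035 probe sets of olfactory receptors, genes of the nose, of which 20.8% read above Sox17, 13.2% above Sox7 and 2.80% above Sox18, with a median level of 3.45. The 15 blood stem cell transcription factors, among them Runx1, Gata2 and Erg, stood between the 55.7 and 96.5 percentile, all above the SoxF probe sets. These are levels of different probes, and whether a low level stands for little RNA or for none was not tested.

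**Figure D2:**
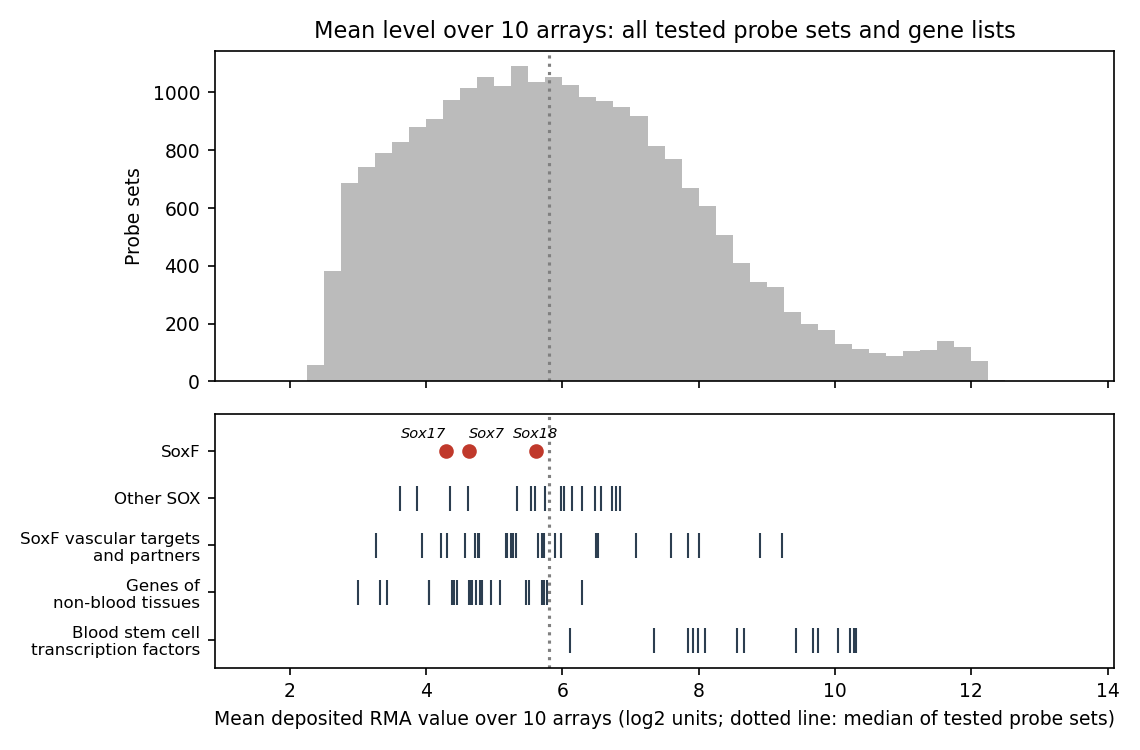
Above, the number of tested probe sets (vertical axis) by mean deposited log2 value over the 10 arrays (horizontal axis); below, the same mean for the SoxF genes (red points), 17 other SOX genes, 26 vascular targets and partners, 22 genes of non-blood tissues and 15 blood stem cell transcription factors (1 mark a gene). Sox17, Sox7 and Sox18 all lie left of the median (dotted line), within the span of the non-blood genes and left of all the blood stem cell factors.

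The other SOX genes gave a measure of how far probe sets of this family move. All 17 were measured: 0 passed (limma) and 0 had an unadjusted p under 0.05. Their differences were negative in 13 of 17, while 46.3% of all tested probe sets had a positive difference. The median was -0.05 against -0.01 over all tested probe sets. The lowest of these differences was that of the testis-determining gene Sry, at -0.17 (SE 0.08), followed by Sox21 at -0.14 (SE 0.12) and Sox6, a repressor of embryonic globin, at -0.13 (SE 0.11). The highest was that of the neural gene Sox3, at 0.07 (SE 0.14). Sox17, at 0.16, thus had the highest difference of the 20 SOX genes and Sox18, at -0.25, the lowest, with SoxF intervals that overlapped those of the others.

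Sry, a Y-linked gene, ran from 6.62 to 6.85 on transgenic and from 6.76 to 7.07 on wild-type arrays, at the 67.7 percentile. The array that carried Y-linked RNA, transgenic array 4, read 6.78, inside the range of the 4 other transgenic arrays. The arrays that read as female thus gave Sry values from 6.62 to 7.07. What the Sry probe set reads on them was not tested. Sox4, an HMG-box factor of lymphoid progenitors, averaged 6.03 ± 0.28 in the transgenic and 6.02 ± 0.33 in the wild-type group (SD, n = 5 each), at the 54.1 percentile. The stem cell factor gene Sox2 stood lowest, at the 13.1 percentile.

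**Figure D3:**
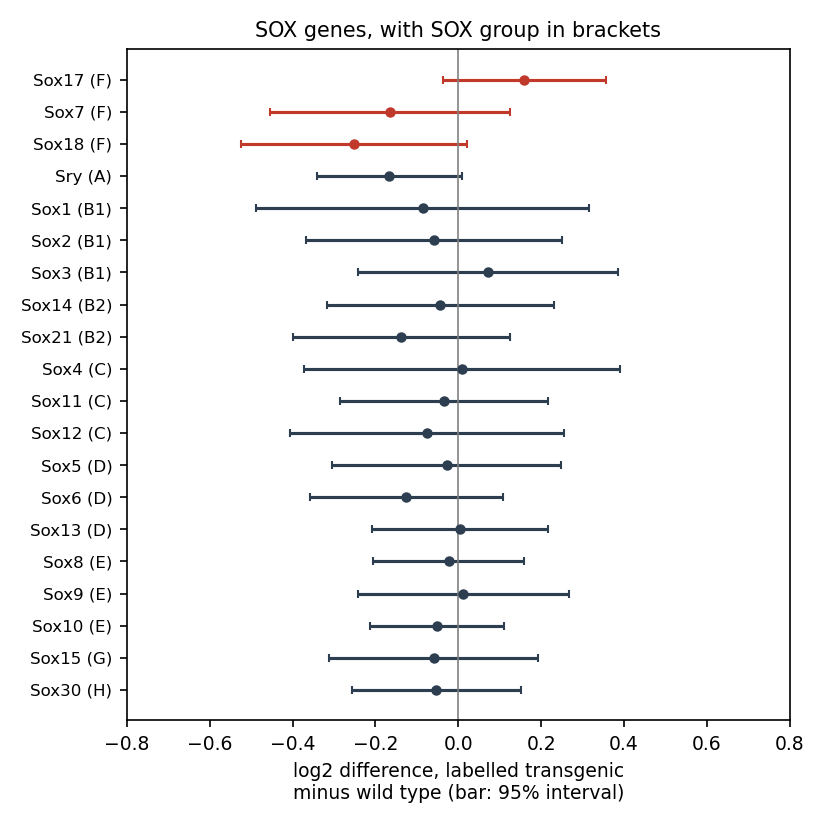
Difference in mean log2 value, labelled transgenic minus wild type (horizontal axis, points), with 95% intervals from limma (bars), for the SoxF genes (red) and 17 other SOX genes (dark), with the SOX group in brackets. All 20 intervals cross 0; Sox17 has the highest point at 0.16 and Sox18 the lowest at -0.25.

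Single arrays were extreme for many SOX probe sets at once. Among the wild-type arrays, array 4 read highest in 13 of the 17 other SOX genes and array 3 lowest in 12 of 17. Among the transgenic arrays, array 1 read highest in 10 of 17. The SoxF genes followed this order in part. Among the transgenic arrays Sox17 and Sox7 were highest on array 1, but Sox18 on array 4. Among the wild-type arrays Sox17 and Sox18 were highest on array 4 and Sox7 on array 5. Sox17 was lowest on wild-type array 3, and both Sox7 and Sox18 on wild-type array 1. For Sox17 the highest places were near ties, with 4.5114 and 4.5043 on transgenic arrays 1 and 2. Wild-type arrays 4, 1 and 5 read 4.3005, 4.2961 and 4.2934 for it. Without wild-type array 3 the Sox17 difference was 0.11, and without wild-type array 4 the Sox18 difference was -0.19. Wild-type array 4 was highest in 6 of the 22 genes of non-blood tissues, and array 5 in 7. The part of such shifts in the SoxF differences was not tested.

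A list of 26 vascular targets and partners of SoxF factors was read for the same arrays, all of them measured. In it 1 gene rose and 0 fell (limma), with 0.141% of all tested probe sets called. With an unadjusted p under 0.05 were 4, all higher on the transgenic arrays, against 6.59% of all tested probe sets. The groups did not overlap in 3 of 26 genes, against 1.47% of all tested probe sets. This list and those below were chosen with earlier results of these data known, so their shares are no test of enrichment. The median difference was 0.06, against -0.01 over all tested probe sets.

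The gene that rose was Egfl7, which encodes a secreted factor of endothelium. It read 8.00, 8.17, 8.17, 8.46 and 8.23 on transgenic arrays 1 to 5 against 6.41, 6.95, 6.88, 7.48 and 7.23 on wild-type arrays 1 to 5, wholly above them (difference 1.21, SE 0.17, adjusted p = 0.0260). Its 95% interval, 0.83 to 1.60, lay above those of all 3 SoxF genes. The call was lost without transgenic array 3, 4 or 5 or wild-type array 2, 3 or 5 (adjusted p from 0.0538 to 0.0813), with the difference at 1.07 or more without any 1 array.

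Claudin 5 (Cldn5), a tight junction gene that Sox18 can bind, and the endothelial cadherin gene Cdh5 had groups apart as well without passing. Cldn5 ran from 5.87 to 6.38 on transgenic and from 5.52 to 5.84 on wild-type arrays (difference 0.44, SE 0.11, adjusted p = 0.231). Cdh5 differed by 1.48 (SE 0.40, adjusted p = 0.305) and spread widely over the transgenic arrays, from 5.58 to 7.70.

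Genes of the arterial Notch pathway, which Sox17 acts on in arteries, were not called. The receptor Notch1 differed by 0.23 (SE 0.10, limma adjusted p = 0.695) and the ligand Dll4 by 0.02 (SE 0.07), with Dll4 at 5.25 to 5.41 on the transgenic and 5.21 to 5.42 on the wild-type arrays. Notch4 differed by 0.05, the arterial ligand Efnb2 by 0.09, and the effectors Hey1 and Hey2 by -0.02 and -0.17. The arterial gap junction gene Gja5 differed by 0.74 (SE 0.40), with transgenic array 3 at 7.40 while the 4 others read 4.89 to 5.57. Prox1, the lymphatic gene that Sox18 turns on, differed by -0.02 (SE 0.11) and stood at the 17.7 percentile. Etv2, an activator upstream of Sox7 in the embryo, differed by -0.10 (SE 0.11).

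**Figure D4:**
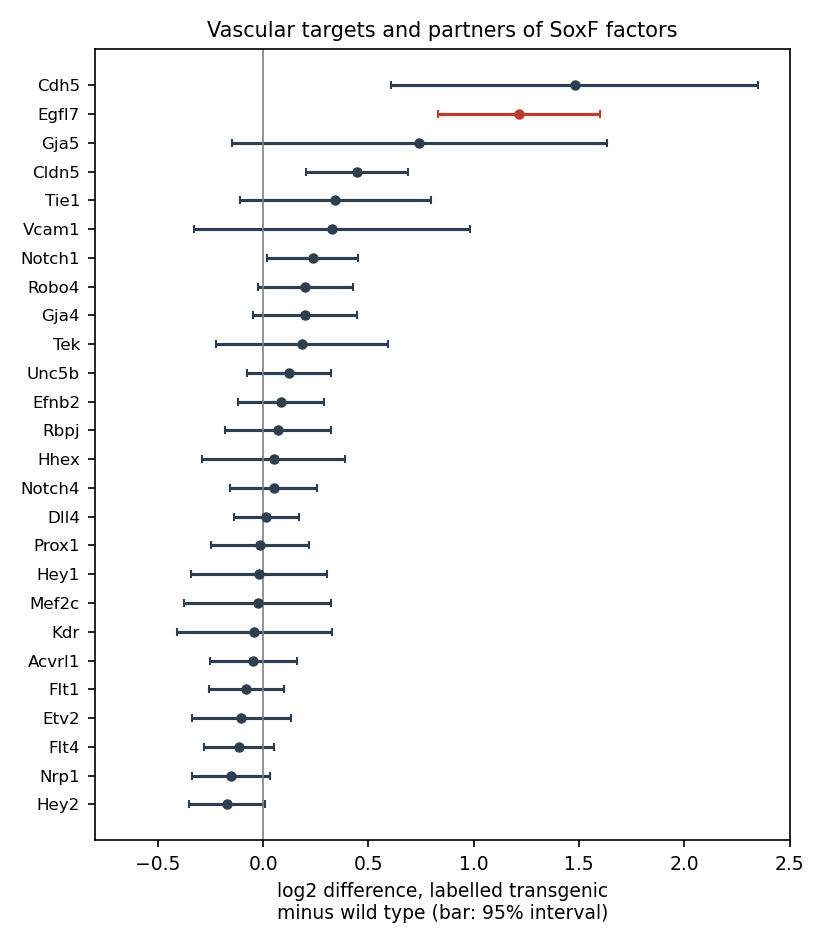
Difference in mean log2 value, labelled transgenic minus wild type (horizontal axis, points), with 95% limma intervals (bars), for 26 vascular targets and partners of SoxF factors, ordered by difference; the gene past the threshold is red. Egfl7 is the gene that passed; Cdh5 lies further right with a wider interval, and Dll4, Prox1, Hey1 and Mef2c lie near 0.

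Markers of other cell types were read beside these genes. The mean of 15 endothelial markers ran from 6.14 to 6.56 on the transgenic and from 5.95 to 6.09 on the wild-type arrays, without overlap. Of the 15, 0 passed (limma), and 5 had an unadjusted p under 0.05, all higher, against 6.59% of all tested probe sets. In 4 of 15 the groups did not overlap, against 1.47% of all, and the median difference was 0.19. Beside Cdh5 and Cldn5, the 5 were the adhesion molecule gene Pecam1 (0.68, SE 0.12, adjusted p = 0.0591), the clotting factor gene Vwf (1.28, SE 0.25, adjusted p = 0.110) and Esam (0.52, SE 0.22, adjusted p = 0.695). Pecam1 ran from 7.53 to 8.18 on transgenic and from 7.03 to 7.23 on wild-type arrays. Cdh5, Cldn5, Robo4, Tek, Kdr and Flt1 are in both lists, and this list too was chosen with earlier results of these data known. The endothelial genes Kdr and Flt1 stood at the 31.2 and 31.5 percentile, with differences of -0.04 and -0.08. Plvap (-0.01), Lyve1 (0.03), Stab2 (-0.02) and Nos3 (-0.09) also differed little. Of the 15 differences 10 were positive and 5 negative, where 46.3% of all tested probe sets had a positive difference. Emcn, Pecam1 and Eng stood at the 87.8, 77.4 and 75.6 percentile and averaged 8.20, 7.14 and 7.26 on wild-type arrays. Some of these markers thus read high in both groups, and which cells their RNA came from was not tested. The part of endothelial RNA in the rise of Egfl7 was not tested, and in bulk samples more cells of a type and more RNA per cell cannot be told apart.

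The mean of 5 megakaryocyte markers ran from 5.93 to 6.38 on the transgenic and from 6.92 to 7.58 on the wild-type arrays. Of these 1 was called (limma), the platelet gene Pf4, which fell by 2.53. All 5 were lower with an unadjusted p under 0.05: beside Pf4, Gp5 (-1.08), Ppbp (-0.97), Itga2b (-0.78) and Gp9 (-0.58). In 2 of 5 the groups did not overlap. The mean of 5 erythroid markers ran from 6.52 to 6.74 and from 7.03 to 7.15, with 0 of 5 called (limma). In that list 4 had an unadjusted p under 0.05, all lower. Over all tested probe sets 0.141% were called, 6.59% had an unadjusted p under 0.05 and 1.47% had groups that did not overlap. The 6 granulocyte and monocyte markers ran from 5.85 to 7.33 and from 5.68 to 6.03. All 6 had positive differences, against 46.3% of all tested probe sets. The 7.33 was that of transgenic array 5, while the other transgenic arrays ran from 5.85 to 6.50. Means of the 6 B and T cell markers ran from 4.40 to 4.77 and from 4.75 to 5.04, and those of the 6 stromal markers from 4.85 to 4.98 and from 4.77 to 5.04. In these 3 lists 0 markers were called (limma), and 1, 1 and 0 had an unadjusted p under 0.05, namely Lyz2 (0.36, SE 0.12) and Nkg7 (-1.17, SE 0.28). The part of these cell types in the SoxF values was not tested.

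SoxF factors also act with GATA and Fox factors in endoderm and bind beta-catenin. Of 22 measured endoderm targets and partners 0 passed (limma), with a median difference of 0.03. With an unadjusted p under 0.05, 1 was higher and 2 were lower, against 6.59% of all tested probe sets in either direction. The one higher was Sparc, a matrix protein gene, which ran from 5.83 to 8.00 on transgenic and from 5.19 to 5.47 on wild-type arrays (difference 1.54, SE 0.31, adjusted p = 0.115). The 2 lower were the endoderm factor Foxa2 (-0.19, SE 0.08) and Fgf3, a target of Sox7 in endoderm (-0.21, SE 0.09). Col4a2, a basement membrane collagen gene, differed by 0.14 (SE 0.07).

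Of 16 measured beta-catenin and TCF genes 0 passed (limma), and 4 had an unadjusted p under 0.05, against 6.59% of all tested probe sets. Among those 4, Tcf7l2 (0.62, SE 0.25), a partner of beta-catenin on DNA, and beta-catenin itself, Ctnnb1 (0.22, SE 0.10), were higher on the transgenic arrays, while the growth genes Myc (-0.72, SE 0.15) and Ccnd1 (-0.68, SE 0.26) were lower. Of the 15 blood stem cell transcription factors 1 rose, the repressor gene Gfi1 (0.64, SE 0.10, adjusted p = 0.0335), against 0.141% of all tested probe sets called, with a median of -0.07 for the list. The Gfi1 call was kept only without transgenic array 2 or 3 and lost without any other 1 array (adjusted p from 0.0579 to 0.110). Without passing, 4 others had an unadjusted p under 0.05, against 6.59% of all tested probe sets. Mecom differed by 0.33 (SE 0.10), Tal1 by -0.22 (SE 0.08), Lmo2 by -0.30 (SE 0.11) and Myb by -0.20 (SE 0.09). Of these, Tal1 alone had groups that did not overlap. Runx1, which Sox17 represses in hemogenic endothelium of the mouse, averaged 8.68 on transgenic and 8.44 on wild-type arrays, and Gata2 8.00 and 8.18, both uncalled.

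The genes whose values ran most like those of each SoxF gene over the 10 arrays were sought among 9824 one-gene probe sets with an above-median spread. For Sox17 they were Nudt2, a Nudix hydrolase (Pearson r = 0.91, Spearman rho = 0.92), the myosin gene Myo9a (r = 0.88, rho = 0.79) and Rbm3os (r = 0.88, rho = 0.73). For Sox7 they were the pituitary homeobox gene Hesx1 (r = 0.96, rho = 0.69), the neuropeptide receptor gene Npffr1 (r = 0.93, rho = 0.81) and Rabep2, a Rab effector (r = 0.92, rho = 0.93). For Sox18 they were the transporter gene Slc45a4 (r = 0.90, rho = 0.90), Cenpv (r = 0.90, rho = 0.88) and the cytokine gene Ctf1 (r = 0.89, rho = 0.87). Of these 9 genes 0 passed the group comparison (limma adjusted p from 0.479 to 0.977). Among the candidates 27 probe sets for Sox17, 84 for Sox7 and 44 for Sox18 had r above 0.8. These counts were taken before a gene's own probe set was dropped, so they may include it. In a search of 9824 candidates over 10 arrays some high r values arise by chance. The number to expect by chance was not computed, so neither the counts nor the 9 genes show a shared regulation. All points share their arrays and normalization, and no named endothelial list gene is among the 9.

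**Figure D5:**
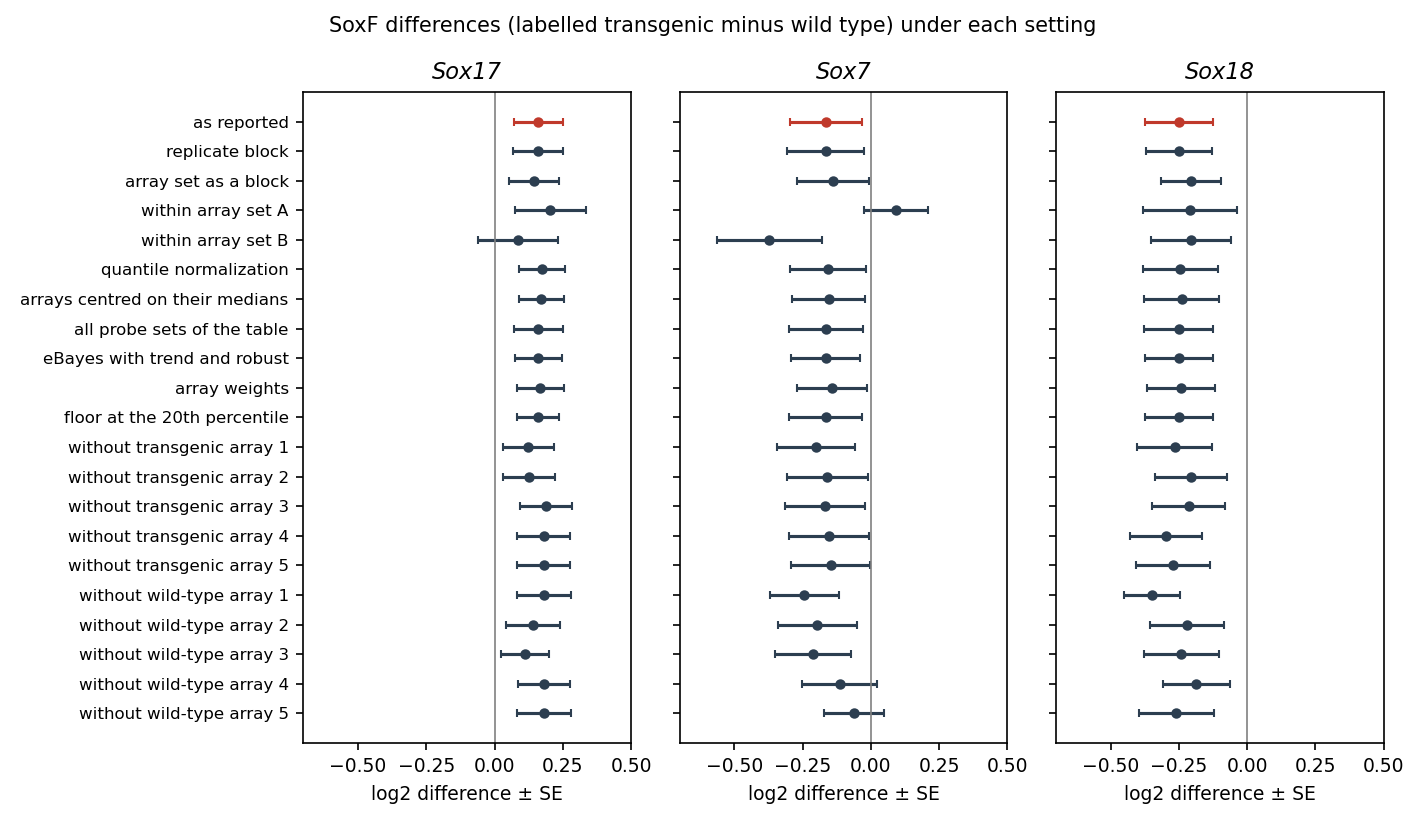
Difference in mean log2 value, labelled transgenic minus wild type (horizontal axes, points ± SE), of Sox17, Sox7 and Sox18 as reported (red) and under each other setting (dark; rows), from blocks and array sets to leaving out each array. Sox17 stays above 0 and Sox18 below 0 in all settings shown, while Sox7 is at 0.093 within array set A and -0.37 within array set B.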

How the data were processed

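The authors deposited 1 table of log2 values, made by RMA with affy and limma also named, per the submitters' processing notes; their versions were not given in these sources. It holds 35556 probe sets on 10 arrays; the platform annotation gives 21789 of them a single symbol and 1621 more than one, and leaves 12146 without a name here. Group differences (transgenic minus wild type) of the 23410 named ones came from lmFit and eBayes of limma 3.58.1 (R 4.3.3), with p-values adjusted by Benjamini-Hochberg across them and a threshold of 0.05. Exact permutation tests used scipy 1.17.1. No filter, pseudocount or further normalization was applied. Groups came from the sample titles. No coordinates are printed, since no source names the array's genome build.

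Where a gene has several one-gene probe sets, the brightest is used. Named are the SoxF genes, the other SOX genes, list members past the threshold or otherwise up to 4 with the smallest p, and for each SoxF gene the 3 most like it; other genes with a value were picked for their known role. Members and lists were chosen with earlier results of these data known. Alternatives were a replicate block, array sets, other normalizations and filters, eBayes and weight options, a floor, a stricter threshold and leaving out each array. The limma script was tested on simulated data.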

Additional observations from a re-analysis of the deposited data

Results flagged for a closer look

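In groups of 5 arrays, an array was listed here when its gap to the nearest other array, divided by the group's range, was above Dixon's 95% critical value. Of 184 groups of values (92 genes), 8 met this, where chance gives about 1 in 20. None was a SoxF value. The Y-linked gene Eif2s3y, added to the scan by name, read 9.23 on transgenic array 4, against 2.598 to 2.752 on the other transgenic arrays. Among the other SOX genes, Sox14 read 5.15 on transgenic array 3 (5.34 to 5.36 on the others), Sox9 read 6.56 on transgenic array 1 (6.18 to 6.28), and Sox4 read 5.44 on wild-type array 3 (6.13 to 6.24). Among vascular genes, Gja5 read 7.40 on transgenic array 3 (4.89 to 5.57), Vcam1, an adhesion molecule gene that Sox18 can bind, read 6.57 on transgenic array 5 (4.85 to 5.31), and Hey2 read 3.58 on wild-type array 4 (3.26 to 3.34). The lysozyme gene Lyz2 read 9.08 on transgenic array 2 (8.57 to 8.70).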

How the results depend on the processing

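The Sox17 difference stayed positive, at 0.085 to 0.20, and the Sox18 difference negative, at -0.35 to -0.19, under all 21 alternatives that gave a value, and neither passed the threshold in any. Sox7 reversed to 0.093 within array set A and was otherwise -0.37 to -0.063; the cause was not tested. All 3 SoxF genes drop out when probe sets below the median level are left out. Leaving out 1 array gave 0.11 to 0.19 for Sox17, -0.24 to -0.063 for Sox7 and -0.35 to -0.19 for Sox18. Over all tested probe sets the number past the threshold, 33, was 91 with the array set as a block, 4 within set A and 6 within set B (5 arrays each), 15 when all probe sets of the table were tested, 8 with a floor at the 20th percentile, 7 at a threshold of 0.01, and 15 to 71 without 1 array. The array sets were drawn from these same values, so the 91 is not an independent count. With the replicate number as a block the number past the threshold was 33, and the SoxF differences were the same. Under that block Egfl7 and Pf4 were called and Gfi1 was not (adjusted p = 0.0947). Deviations of same-numbered arrays correlated at 0.11 to 0.35 in 4 of 5 pairs and at -0.14 for number 3. In both groups numbers 1 and 2 lay in set A and numbers 4 and 5 in set B. Number 3 lay in set A as transgenic and in set B as wild type. No label ties the numbers, and 1 of 10 arrays correlated best with its own number, so the main model did not pair them. Whether same-numbered arrays were handled together was not tested. The floor, 3.73, lies below all SoxF values. Egfl7, Gfi1 and Pf4 passed under 11, 7 and 18 of 22 alternatives, with no change of direction. Near the floor, RMA limits what can be seen.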
